A study of Mus musculus with 4 samples.

Results

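Potassium channel genes were compared between fetal mouse brains exposed to ethanol and saline controls. The genes were taken as all probe sets whose platform annotation gives a single symbol beginning with Kcn, without antisense names, and the probe set with the highest mean over the arrays stood for a gene with several. This gave 89 genes from 92 probe sets, out of 19938 genes with a probe set of their own. They comprised 35 pore-forming or silent voltage-gated subunits, 13 accessory subunits of voltage-gated channels, 15 inward rectifiers, 12 calcium-activated channel genes (with the related Slo channels) and 14 two-pore channels. The reference gene table held 94 protein-coding Kcn genes, and the other 5 were not analysed here.

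The samples were whole brains of C57BL/6J fetuses, an inbred mouse strain, at embryonic day 16. In the ethanol group the dams had been injected with ethanol at 2.5 g per kg in saline on gestational days 14 and 16, and in the control group with saline alone on the same schedule. Each group had 2 arrays, and each array carried RNA pooled from 3 mice, 12 mice in all. Fetal sex was unknown, the brain was not dissected into regions, and nothing in the labels says which litters entered a pool, so the errors below measure only the spread between these pools.

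Potassium channels let potassium leave or enter the cell along its gradient and set the resting potential, the shape of the action potential and the firing rate of neurons. Voltage-gated channels open on depolarisation, inward rectifiers pass current near rest and can be opened by G proteins or by a fall in ATP, calcium-activated channels follow intracellular calcium, and two-pore channels carry the leak current. Ethanol acts directly on some of these proteins, among them the G protein-gated inward rectifiers (Kcnj3, Kcnj6) and the large-conductance calcium-activated channel (Kcnma1), which makes the family of interest after an acute exposure.

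The arrays gave no potassium channel gene that differed between the groups after adjustment. Limma called 0 of the 89 genes at a Benjamini-Hochberg adjusted p under 0.05, and the lowest adjusted p among them was 0.980. The same test called 0% of all genes. An unadjusted p under 0.05 was reached by 3 genes, or 3.37%, against 2.94% of all genes tested. All 3 were lower in ethanol, which held for 1.36% of all genes at that p. The count was 2 in the ordinary test without shared variance (3.85% of all genes). It became 1 after median centring (2.44%) and 1 with the replicate number as a block (1.34%). Among the brighter genes it was 4 of 44, against 4.59% of all brighter genes. The count over the 89 genes was 4 after repeated quantile normalization (3.57%). With the replicate numbers paired crosswise, a setting chosen after the data were seen, it was 7 (7.34%). It was 0 without ethanol 1, 1 without control 1, and 4 without ethanol 2 and again without control 2 (8.54% and 6.99% of all genes). A fold of at least 1.2 together with that p was met by 1 gene, Kcnj13, against 1.02% of all genes. Kcnj13 no longer met both limits without ethanol 1 or without control 1, and the 1 gene that did without control 1 was Kcnf1. The groups did not overlap, in either direction, in 22 genes, or 24.7%, of which 13 were higher and 9 lower in ethanol, against 31.4% of all genes. The share at an unadjusted p under 0.05, in either direction, was near that of all genes. With only 3 genes, their shared direction was not read as a trait of the family. The share with groups apart was below that of all genes. An exact permutation test of a single gene cannot go below p = 0.333 with 2 arrays against 2.

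The differences were small as well as uncalled. On the log2 scale they ran from -0.34 (Kcnj13) to 0.21 (Kcnip4), and the median absolute difference was 0.05 against 0.06 over all genes. The 95% limma interval of the difference lay within a 1.5-fold change either way in 88 of the 89 genes, and in 97.0% of all genes. The exception was Kcnj13. Values above 0 were found in 59 genes and values below 0 in 30, or 66.3% above 0 against 54.2% of all genes, with a median of 0.03 against 0.009. That balance depended on single pools: it was 40 above and 49 below without ethanol 1, and again 40 and 49 without control 1, but 68 above and 21 below without ethanol 2 and likewise without control 2. Over all genes the share above 0 was 45.4% without ethanol 1 and 53.7% without control 1. It was 57.5% without ethanol 2 and 55.3% without control 2.

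**Figure D1:**
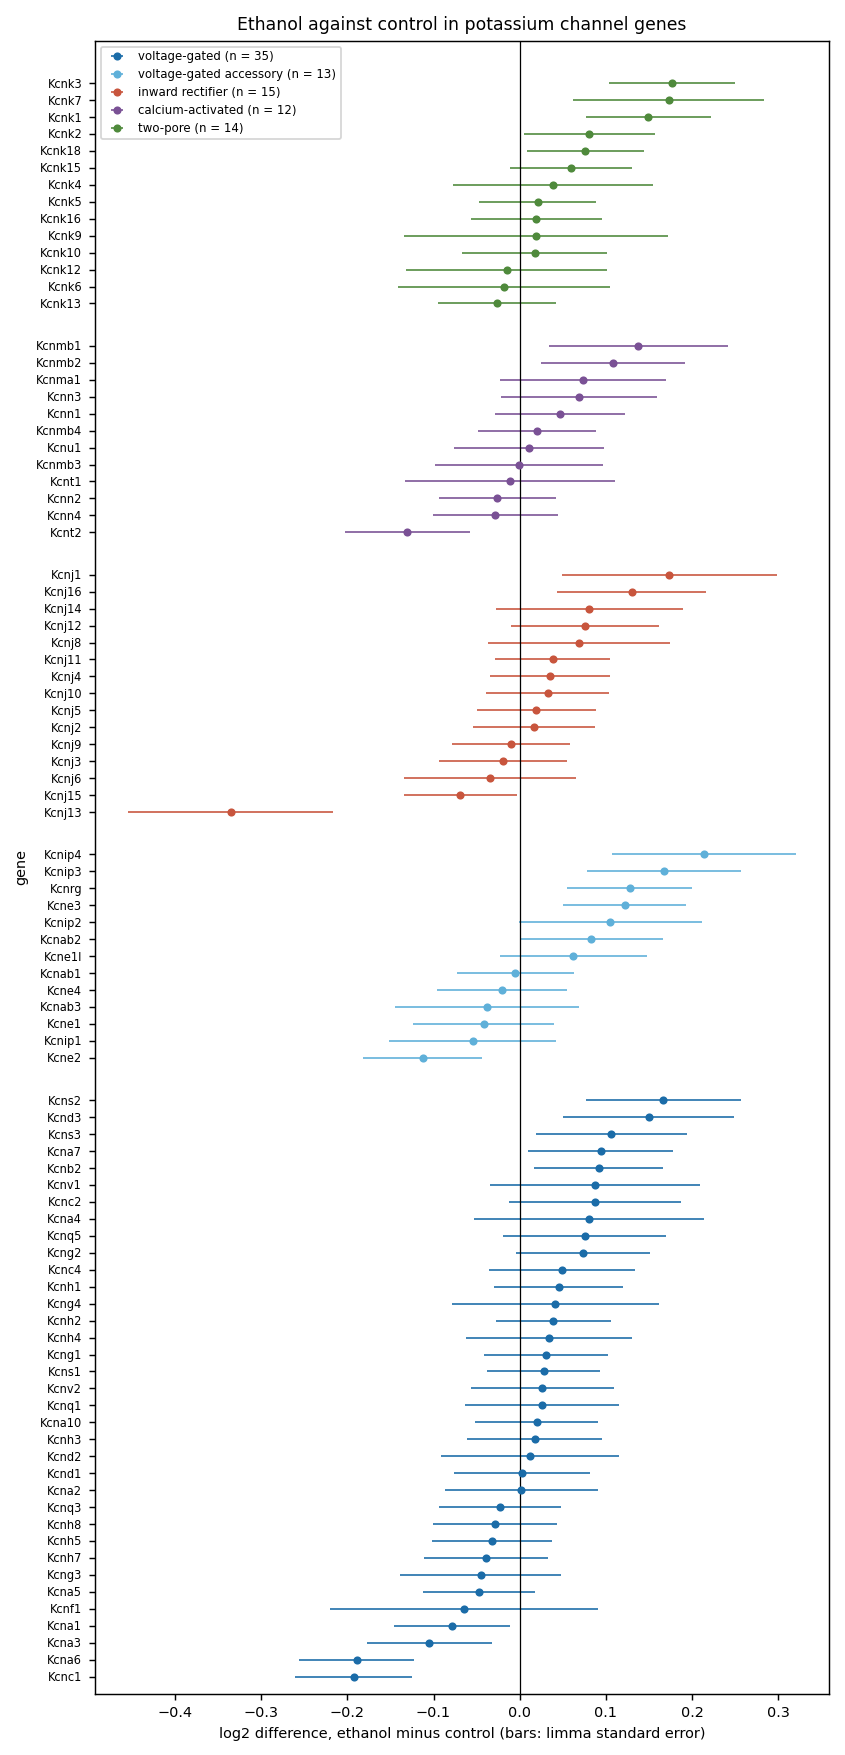
Log2 difference, ethanol minus control, of each of the 89 potassium channel genes (x axis), grouped by channel type, with the limma standard error as a bar; 2 arrays per group. Of the 89 points, 68 lie within 0.1 of 0, and Kcnj13 at -0.34 stands farthest out.

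The 3 genes with an unadjusted p under 0.05 were Kcnc1, Kcna6 and Kcnj13, all lower in ethanol. To set their promoters side by side, the 150 bases before each annotated start are given 5′ to 3′ from RefSeq (build GRCm38.p6), at chr7:46396318-46396467 on the plus strand, chr6:126740675-126740824 on the minus strand and chr1:87394730-87394879 on the minus strand. Capitals mark the TATA box (TATAAA), the CCAAT box (CCAAT) or the GC box (GGGCGG) on either strand.
Kcnc1: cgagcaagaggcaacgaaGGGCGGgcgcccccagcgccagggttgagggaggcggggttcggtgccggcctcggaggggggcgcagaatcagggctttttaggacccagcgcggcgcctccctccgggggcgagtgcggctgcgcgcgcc
Kcna6: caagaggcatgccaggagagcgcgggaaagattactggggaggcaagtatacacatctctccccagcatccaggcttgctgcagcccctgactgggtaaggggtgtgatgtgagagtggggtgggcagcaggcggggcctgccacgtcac
Kcnj13: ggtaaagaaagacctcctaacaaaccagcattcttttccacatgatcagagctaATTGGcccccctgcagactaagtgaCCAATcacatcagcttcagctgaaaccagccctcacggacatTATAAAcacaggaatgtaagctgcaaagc

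These sequences had little in common. The Kcnc1 window held 19 CpG dinucleotides and a GC box, the Kcna6 window 4 CpG and none of the motifs, and the Kcnj13 window 1 CpG, a TATA box and 2 CCAAT boxes. Promoters were on hand for 68 of the 89 genes, in 93 windows. A GC box was present in 38.7% of these and in 28.6% of all 32851 windows, a CCAAT box in 16.1% and 24.5%, and a TATA box in 2.15% and 7.57%. The median number of CpG was 5 in the windows of potassium channel genes and 4 in all windows. A match describes the letters only.

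Among the 35 voltage-gated subunits, 24 lay above 0 and 11 below, with a median log2 difference of 0.03. Groups did not overlap in 9 of them, 4 higher (11.4% against 17.4% of all genes) and 5 lower (14.3% against 14.0%) in ethanol. Kcnc1, a fast delayed rectifier of fast-spiking neurons, had log2 values of 8.75 and 8.82 in ethanol 1 and 2 and 8.97 and 8.99 in control 1 and 2. Both ethanol pools were below both control pools, by -0.19 ± 0.07 (log2, SE; unadjusted p = 0.031 and adjusted p = 0.980 in limma). Kcna6, a delayed rectifier of the Shaker group that sits on axons, read 8.69 and 8.75 in the ethanol pools and 8.92 and 8.89 in the control pools. The groups were again apart, with a difference of -0.19 ± 0.07 (unadjusted p = 0.033 and adjusted p = 0.980 in limma). The 2 ethanol pools differed from each other by 0.06 in Kcnc1 and 0.05 in Kcna6, less than the difference between the groups. Both genes were picked out by their unadjusted p, which favours genes with a small spread between pools. Leaving out an array gave differences from -0.22 to -0.16 in both genes, a range that cannot cross 0 when the groups are apart.

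Kcna1, another axonal Shaker channel, had 7.34 and 7.33 in the ethanol pools and 7.38 and 7.44 in the control pools. The pools did not overlap, but the difference of -0.08 ± 0.07 was near its standard error. In the gene table Kcna5, Kcna1 and Kcna6 are consecutive protein-coding genes, and so are Kcna3, Kcna2 and Kcna10. Kcna5 and Kcna3, named after their values were seen, also had both ethanol pools below both control pools, at -0.05 ± 0.07 and -0.11 ± 0.07. Kcna2, a partner of Kcna1 in axonal channels, read 9.98 and 9.84 against 9.83 and 9.98, with a difference of 0.002 ± 0.09, and Kcna10 stood at 0.02 ± 0.07. The remaining members, Kcna4 and Kcna7, lay above 0 with overlapping groups, at 0.08 ± 0.13 and 0.09 ± 0.08. Thus 4 of the 8 Kcna genes had groups apart, all lower in ethanol, against 14.0% of all genes. The other 4 lay above 0, and the median of the 8 was -0.02. The Kcna group was singled out after its values were seen, and none of its members passed the adjusted test.

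The voltage-gated gene with the largest positive value was Kcns2, a silent subunit that modifies other channels, with 6.91 and 7.05 in the ethanol pools and 6.73 and 6.90 in the control pools. The lower ethanol pool and the higher control pool almost touched, and the difference was 0.17 ± 0.09. Kcnd2, the A-type channel of dendrites, had 11.05 and 11.14 against 10.96 and 11.21, a difference of 0.01 ± 0.10. Its lowest and its highest value both came from control pools. Kcnq3, a subunit of the M-current channel that damps repetitive firing, read 10.48 and 10.39 against 10.45 and 10.47, with a difference of -0.02 ± 0.07. Kcnh2, the ERG channel, had 8.995 and 9.05 against 8.99 and 8.98, so that the pools were just apart at a difference of 0.04 ± 0.07. In Kcnh2, Kcna5 and Kcns1 the groups did not overlap although the difference was smaller than its standard error.

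The 13 accessory genes had a median of 0.06, with 7 above 0 and 6 below, and groups apart in 5, or 38.5% against 31.4% of all genes. Of these 4 were higher in ethanol (30.8% against 17.4%) and 1 lower (7.69% against 14.0%). The Kcnip genes encode calcium-binding proteins that bring Kcnd channels to the membrane, and the Kcnip3 protein is also known as the transcriptional repressor DREAM. Kcnip4 had 10.82 and 10.66 in the ethanol pools and 10.41 and 10.65 in the control pools. Ethanol 1 was the highest and control 1 the lowest array, while ethanol 2 and control 2 were nearly equal, and the difference was 0.21 ± 0.11 (unadjusted p = 0.095 and adjusted p = 0.980 in limma). Kcnip3 had 11.00 and 10.83 against 10.69 and 10.81, in the same order of arrays, with a difference of 0.17 ± 0.09. Leaving out an array gave 0.09 to 0.33 for Kcnip4 and 0.08 to 0.25 for Kcnip3. All 4 Kcnip genes had their lowest value on control 1, Kcnip1 and Kcnip2 included, and Kcnip1 stood at -0.05 ± 0.10.

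Kcnrg, a regulator of channel assembly, read 8.92 and 8.86 in the ethanol pools and 8.72 and 8.81 in the control pools, without overlap and with a difference of 0.13 ± 0.07. Kcnab2, the main beta subunit of Kcna channels in brain, had 9.05 and 8.93 against 8.85 and 8.97, where the groups overlapped (0.08 ± 0.08). Kcne2, a small subunit present in choroid plexus epithelium, had 8.26 and 8.34 against 8.39 and 8.43. Both ethanol pools were the lower ones, at -0.11 ± 0.07.

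Of the 15 inward rectifiers, 10 lay above 0 and 5 below, with a median of 0.03 and groups apart in 3, or 20.0% against 31.4% of all genes. Kcnj13, the Kir7.1 channel of choroid plexus and other ion-transporting epithelia, had 8.74 and 8.98 in the ethanol pools and 9.31 and 9.07 in the control pools. Ethanol 1 was lowest, control 1 highest, and the other pools lay close together between them. The difference of -0.34 ± 0.12 was the largest of all potassium channel genes (95% limma interval -0.63 to -0.04, unadjusted p = 0.032 and adjusted p = 0.980). It was -0.22 without control 1 and -0.22 without ethanol 1, and -0.45 without ethanol 2 and -0.45 without control 2. Over 6 choroid plexus markers the median log2 level was 7.97 and 8.07 in the ethanol pools and 8.30 and 8.04 in the control pools, with the highest value on control 1 in 5 of 6 and a difference below 0 in 5 of 6. Their summed level was 13.4 and 13.4 against 13.6 and 13.4 on the log2 scale, and 1 of the 6 was below the lower quartile on every array. The part of the choroid plexus in the values of Kcnj13 and Kcne2 was not tested. In these whole-brain pools fewer cells of a type and less RNA per cell cannot be told apart.

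The G protein-gated channel of neurons is built mainly from the subunits Kcnj3 and Kcnj6, which slow firing when inhibitory receptors are active. Kcnj3 had 9.47 and 9.45 in the ethanol pools and 9.54 and 9.42 in the control pools. Both ethanol pools lay between the control pools, and the difference was -0.02 ± 0.07 (95% limma interval -0.20 to 0.16). Kcnj6 had 7.99 and 7.96 against 7.89 and 8.14, again with the ethanol pools inside the range of the controls. Its difference was -0.03 ± 0.10 (95% limma interval -0.28 to 0.21). The controls differed from each other more than the groups did in both genes.

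Kcnj10, the Kir4.1 channel of astrocytes and their precursors, had 8.85 and 8.79 in the ethanol pools and 8.74 and 8.83 in the control pools, with a difference of 0.03 ± 0.07. Kcnj16, its partner subunit, read 6.73 and 6.57 against 6.46 and 6.58 (0.13 ± 0.09), with ethanol 1 high and control 1 low. Kcnj8, the pore of the ATP-sensitive channel of pericytes, had 8.49 and 8.21 against 8.28 and 8.27. The ethanol pools lay on either side of the control pools, and the difference was 0.07 ± 0.11. Over 10 pericyte and meningeal markers the median was 8.55 and 8.99 in the ethanol pools and 9.35 and 8.63 in the control pools, with control 1 highest in all 10. Abcc9, the sulfonylurea receptor that pairs with Kcnj8, had 8.94 and 8.88 in the ethanol pools and 9.20 and 8.86 in the control pools, also highest in control 1. The part of these cells in the values of Kcnj8 was not tested. Kcnj1, a channel known from kidney, had 6.17 and 5.98 against 5.75 and 6.05 (0.17 ± 0.12), all below the lower quartile of their arrays (6.45 to 6.55). Such dim values lay in 18 of the 89 genes and in 6 of the 15 inward rectifiers, and an array value there cannot show whether a transcript was present.

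Of the 12 calcium-activated and Slo genes, 7 lay above 0 and 5 below, with a median of 0.02 and groups apart in 1, or 8.33% against 31.4% of all genes. Kcnma1, the pore of the large-conductance channel that shortens action potentials, had 10.84 and 10.68 in the ethanol pools and 10.59 and 10.77 in the control pools. Ethanol 1 was highest and control 1 lowest, and the groups overlapped (0.07 ± 0.10, 95% limma interval -0.17 to 0.31). Its beta subunits Kcnmb1 and Kcnmb2 tune the channel's calcium sensitivity and inactivation. Kcnmb2 had 8.99 and 8.84 against 8.76 and 8.85 (0.11 ± 0.08). Kcnmb1, a smooth muscle subunit, had 6.46 and 6.19 against 6.17 and 6.20, all below the lower quartile of their arrays. Among these values ethanol 1 alone stood out (0.14 ± 0.10). Kcnt2, a sodium-activated channel, read 9.14 and 9.18 against 9.24 and 9.34, both ethanol pools being lower by -0.13 ± 0.07. Kcnn2, a small-conductance channel of the afterhyperpolarisation, had 9.84 and 9.78 against 9.83 and 9.84 (-0.03 ± 0.07).

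The 14 two-pore channels had 11 values above 0 and 3 below, with a median of 0.03, and groups apart in 4, all higher in ethanol (28.6% against 17.4% of all genes). Kcnk3, the acid-sensitive TASK-1 leak channel, had 9.32 and 9.32 in the ethanol pools and 9.09 and 9.20 in the control pools. The ethanol pools differed by less than 0.01 and were above both controls, by 0.18 ± 0.07 (unadjusted p = 0.055 and adjusted p = 0.980 in limma). Kcnk1, the TWIK-1 leak channel, read 8.96 and 8.92 against 8.74 and 8.84, also apart (0.15 ± 0.07, unadjusted p = 0.088 in limma). Leaving out an array gave 0.12 to 0.23 for Kcnk3 and 0.10 to 0.20 for Kcnk1.

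Kcnk2, the mechanosensitive TREK-1 channel, had 9.12 and 8.99 against 8.96 and 8.99, where ethanol 2 and control 2 nearly coincided (0.08 ± 0.08). Its relative Kcnk10 (TREK-2) had 10.14 and 10.12 against 10.02 and 10.20 (0.02 ± 0.08). Kcnk9, the TASK-3 channel that is imprinted in brain, had 9.95 and 9.73 against 9.61 and 10.03. The control pools were the lowest and the highest array, and the difference was 0.02 ± 0.15. Kcnk7, a silent two-pore subunit, read 6.45 and 6.16 against 6.09 and 6.18, with ethanol 1 above the other 3 pools (0.17 ± 0.11) and all values below the lower quartile.

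**Figure D2:**
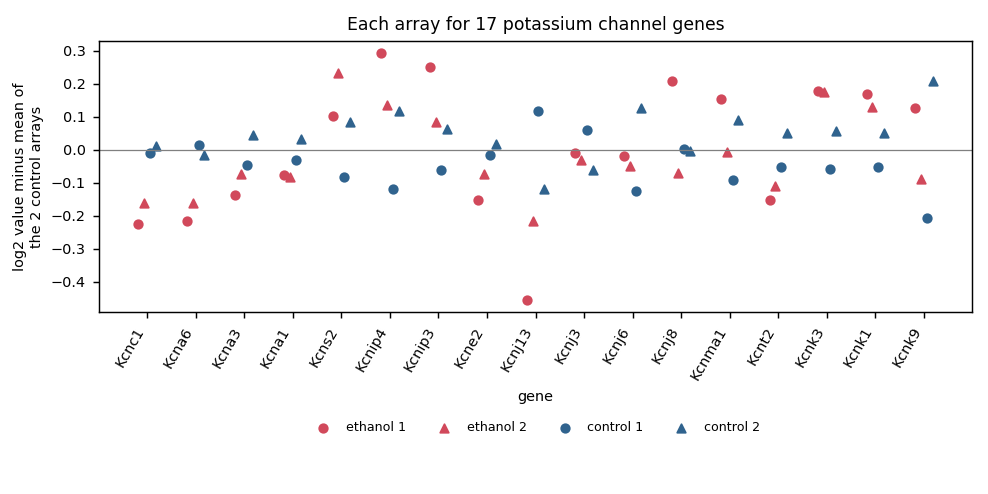
Log2 value on each array minus the mean of the 2 control arrays (y axis) for selected potassium channel genes (x axis), with ethanol pools in red and control pools in blue, circles for pool 1 and triangles for pool 2. The ethanol pools lie below both controls in Kcnc1, Kcna6 and Kcnj13 and above both in Kcnk3 and Kcnk1, while in Kcnj3 and Kcnj6 they lie between the controls.

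The spread between pools of the same group had a common direction in these genes. Control 1 was below control 2 in 69 of the 89, or 77.5%, against 53.5% of all genes, and ethanol 1 was above ethanol 2 in 69, or 77.5%, against 58.4%. The median log2 difference was -0.07 for control 1 minus control 2 and 0.07 for ethanol 1 minus ethanol 2, against -0.01 and 0.03 over all genes. The direction was not particular to potassium channel genes. In 29 genes of channel partners, described below, the shares were 72.4% and 75.9% and the medians -0.12 and 0.06. Control 1 held the lowest value of 48 potassium channel genes, or 53.9%, against 32.5% of all genes, and ethanol 1 the highest of 48, or 53.9%, against 40.2%. By channel type, control 1 was below control 2 in 29 of 35 voltage-gated, 10 of 13 accessory, 11 of 12 calcium-activated and 11 of 14 two-pore genes. Among the inward rectifiers it was 8 of 15, a share like that of all genes. No difference between 2 pools of a group reached 1 on the log2 scale. The largest was -0.47 for Kcnf1, a silent subunit, which read 7.26 in control 1 and 7.73 in control 2, followed by Kcnk9 at -0.41. Kcnk6 and Kcnj13 went the other way in both groups, with control 1 above control 2 by 0.25 and 0.24 and ethanol 1 minus ethanol 2 at -0.25 and -0.24. Kcnf1 and Kcnk6 were named after their values were seen.

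**Figure D3:**
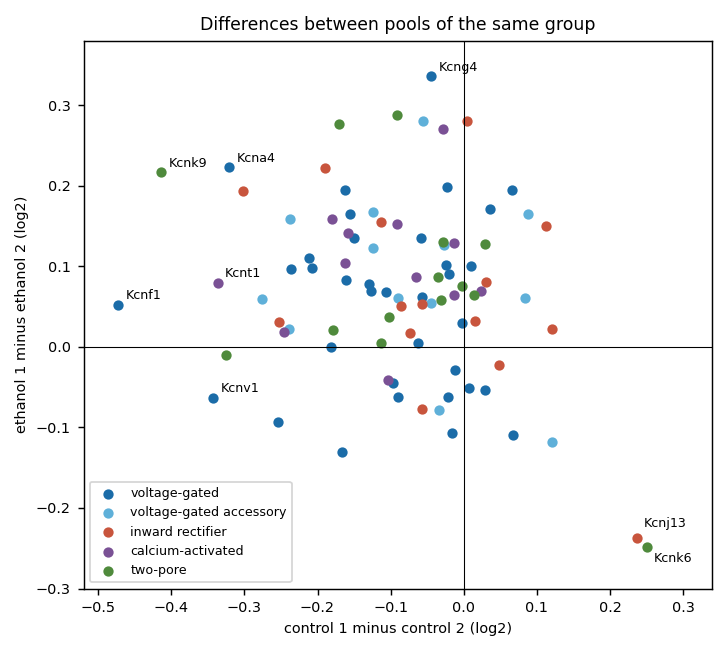
Log2 difference between the 2 control pools (x axis) and between the 2 ethanol pools (y axis) for each of the 89 potassium channel genes, coloured by channel type. Most points lie in the upper left, where control 1 is below control 2 and ethanol 1 above ethanol 2 (56 of 89 genes, or 62.9%, against 37.1% of all genes). In the partner genes, not drawn here, that share was 62.1%.

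**Figure D4:**
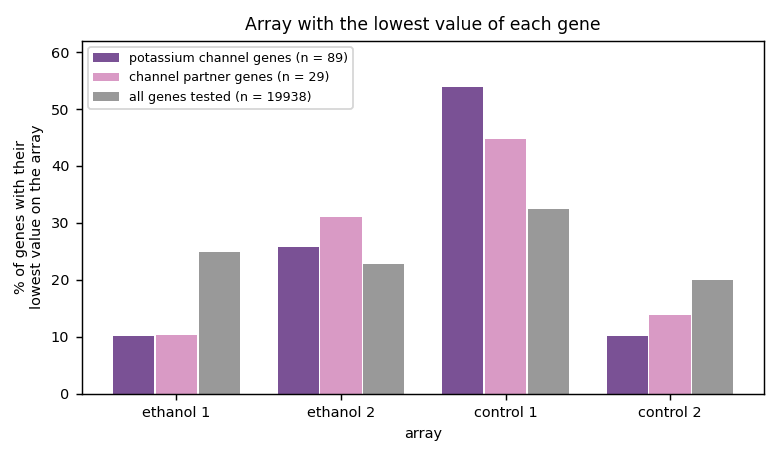
Share of genes (y axis, percent) whose lowest value is on each of the 4 arrays (x axis), for potassium channel genes, their partner genes and all genes tested. Control 1 holds the lowest value of 53.9% of potassium channel genes, 44.8% of partner genes and 32.5% of all genes.

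Control 1 was also the array with the highest values for markers of muscle, meninges and vessels. All 12 skeletal muscle markers were highest there, with a median log2 level of 9.74 in control 1, 7.46 in control 2, 7.44 in ethanol 1 and 8.09 in ethanol 2. Their summed level was 11.1 and 12.7 in the ethanol pools and 14.2 and 11.0 in the control pools, and none of the 12 was below the lower quartile on every array. All 10 pericyte and meningeal and all 7 endothelial markers were highest in control 1 as well. Markers of neurons were bright on every array, and their median log2 level was 12.64 and 12.54 in the ethanol pools and 12.47 and 12.55 in the control pools. Their summed level was 15.77 and 15.75 against 15.71 and 15.78. These 8 markers went both ways, with 4 below 0 in ethanol and 2 highest in control 1. Their differences ran from -0.38 ± 0.11 (Tubb3) to 0.19 ± 0.09 (Snap25). The part of these tissues in the pool differences of the potassium channel genes was not tested. Of 6 microglia markers, 4 were highest in control 1. Radial glia markers had a median of 11.01 and 10.85 against 10.79 and 10.89, set on every array by Slc1a3 alone. The list of 7 did not share that order of pools. Its median of control 1 minus control 2 was 0.08, with 2 of the 7 highest in control 1. The ethanol minus control difference was below 0 in 3 of them. Of 6 erythroid markers 3 were measured. Hbb-y, which set their median on every array, had 7.47 and 9.08 in the ethanol pools and 9.92 and 7.13 in the control pools. The other markers differed less between pools. Alas2 had 9.78 and 10.01 against 9.95 and 9.70. Hbb-bh1 had 5.66 and 5.69 against 5.68 and 5.59, below the lower quartile on every array.

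Proteins that work with these channels gave the same picture of small differences. Of 31 listed partners 29 were measured, 16 above 0 and 13 below, with a median of 0.009 against 0.009 over all genes. Limma called 0 at an adjusted p under 0.05, and 1 had an unadjusted p under 0.05, or 3.45% against 2.94% of all genes. That gene was Hcn4, a pacemaker channel opened by hyperpolarisation and cyclic nucleotides, with 10.05 and 9.95 in the ethanol pools and 9.66 and 9.84 in the control pools. The groups were apart and the difference was 0.24 ± 0.09 (unadjusted p = 0.035 and adjusted p = 0.980 in limma). Lrrc55, a gamma subunit of the Kcnma1 channel, had 10.33 and 10.13 against 9.90 and 10.22, an overlap at 0.17 ± 0.13. Among the lowest, the scaffold proteins Dlg2 and Dlg1, which cluster Kcna channels, stood at -0.14 ± 0.09 and -0.14 ± 0.08. Dlg2 had 11.06 and 11.05 against 11.08 and 11.31, and Dlg1 had 10.55 and 10.64 against 10.79 and 10.66, both with the ethanol pools below both controls.

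Second probe sets were present for 3 genes and did not always follow the first. For Kcnh8, a voltage-gated channel of the ELK group, the brighter probe set had 9.48 and 9.59 in the ethanol pools and 9.55 and 9.57 in the control pools (-0.03 ± 0.08, with errors here from a fit over all probe sets), while the other had 8.85 and 8.64 against 8.47 and 8.52 (0.25 ± 0.10). For Kcna2 the other probe set had 7.78 and 7.75 against 7.54 and 7.65 (0.17 ± 0.08). For Kcnma1 it had 5.96 and 5.86 against 5.69 and 5.64, all below the lower quartile of their arrays. That difference was 0.25 ± 0.08, higher in ethanol (unadjusted p = 0.026 in limma over all probe sets). In all 3 the ethanol pools of the second probe set were above both control pools, whereas in the first the groups overlapped.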

How the data were processed

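RNA of 4 pools of fetal brains was measured on Affymetrix whole-transcript arrays. The authors deposited a table with each array's value for each probe set, already summarised. Its range fits log2, and the deposited values were read as log2 although no label states the base. The submitters' processing notes name Partek 6.6. Background correction and normalization, steps not given in the sources used here, affect dim values most. Of 35556 probe sets, 21789 had 1 symbol, 1621 several and 12146 lacked one. Older symbols were replaced through their Entrez identifier (21698 matched) with those of a GRCm38.p6 gene table, which served for names, order of genes and promoters only.

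Ethanol was compared with control by limma 3.58.1 (R 4.3.3, lmFit and eBayes without trend) over all 19938 genes, two-sided, with Benjamini-Hochberg adjustment. The fit had 2 residual and 5.65 total degrees of freedom. A simulation of this comparison over 19938 genes recovered, at an adjusted p under 0.05, 0% of those with a 1.2-fold change, 32% with 1.5-fold, 86% with 2-fold and 94% with 4-fold. The number of arrays limits the precision.

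Members and lists were chosen with earlier results of these data known. Values on each array are given for Kcnj3, Kcnj6 and Kcnma1, the 3 largest differences of each channel type, genes at an unadjusted p under 0.05, genes whose pools of a group differed by at least 1 (0 genes), and 20 genes with known roles, of which 18 were measured. Partners named are the 2 largest differences in each direction. Alternatives were each probe set, mean of probe sets, repeated quantile normalization, median centring, brighter genes, other variance models, a replicate block and leaving out each array.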

Additional observations from a re-analysis of the deposited data

Results flagged for a closer look

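Of 6 Kcn probe sets outside the comparison, 4 had both ethanol arrays above both control arrays. These were the second probe sets of Kcna2 (log2 difference 0.17), Kcnh8 (0.25) and Kcnma1 (0.25), and Kcnd3os, an antisense transcript (0.10). The Kcnd3os values were 8.08 and 7.93 in the ethanol pools and 7.91 and 7.91 in the control pools, so ethanol 2 and the controls nearly coincided. The antisense transcripts Kcnmb4os1 and Kcnmb4os2 stood at -0.02 and 0.06 with overlapping groups. Over all genes, 17.4% had both ethanol arrays above both control arrays. With 2 arrays per group no array could be tested for standing apart from its group.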

How the results depend on the processing

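No potassium channel gene passed the adjusted threshold (a count of 0) under any alternative run. The count with an unadjusted p under 0.05 and a fold of 1.2 was 1, against 1.02% of all genes. It became 0 at a fold of 1.5, 0 over each probe set (2.79% of all probe sets) and 0 in the ordinary test (0.186% of all genes). With no fold minimum it was 3 (2.94% of all genes). The difference of Kcnj13, the 1 gene, ranged from -0.454 to -0.217 with an array left out. The count with groups apart was 22 and became 14 of 44 among the brighter genes, against 34.8% of all brighter genes. It was 46 to 64 with an array left out, where a group of 1 array overlaps less often (58.4% to 74.4% of all genes). The median over the 89 genes ranged from -0.012 to 0.068 with an array left out. By type the ranges were -0.033 to 0.064 (voltage-gated), 0.017 to 0.135 (accessory), -0.0090 to 0.046 (inward rectifier), -0.025 to 0.107 (calcium-activated) and 0.016 to 0.106 (two-pore), and for partners -0.024 to 0.076. Among the brighter genes the two-pore median was 0.081. Other variance models, a block and the restriction to brighter genes leave the difference of a gene as it is. Where the groups are apart, the sign also cannot turn when an array is left out. Kept signs were thus partly fixed in advance and are not read as support. Of 31 named genes, 20 kept their sign under every alternative run and 11 turned it. With an array left out these ranged from -0.080 to 0.041 (Kcnj3), -0.160 to 0.092 (Kcnj6), -0.017 to 0.163 (Kcnma1), -0.115 to 0.140 (Kcnd2), -0.073 to 0.077 (Kcna2), -0.068 to 0.022 (Kcnq3), -0.071 to 0.209 (Kcnj8), -0.011 to 0.075 (Kcnj10), -0.058 to 0.0066 (Kcnn2), -0.188 to 0.226 (Kcnk9) and -0.072 to 0.107 (Kcnk10). After repeated quantile normalization Kcnj3 was at 0.017, Kcnq3 at 0.0032 and Kcnn2 at 0.0055. The cause was not tested. No label says that equal numbers mark paired pools, and the same-numbered arrays' deviations had a correlation of -0.484. A replicate block left 0 genes past the adjusted threshold and 1, Kcnj13, at the unadjusted p and fold. With crossed pairing, chosen after the data were seen, the counts were 0 and 1. With a group of 1 array the fit assumes that it varies like the other group. Dim genes limit what the arrays show.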
